A study of Mus musculus with 6 samples.

Results

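The Tectonic and B9 genes are 7 mouse genes, Tctn1, Tctn2, Tctn3, B9d1, B9d2, Mks1 and Cc2d2a, chosen by name from the 56359 rows of a table of gene expression. Each symbol matched 1 row, and all 7 were among the 16411 genes that reached 1 TPM in at least 3 of 6 samples and were tested. TPM is a transcript level corrected for gene length and scaled to the same total in each sample. RNA sequencing measured 3 samples of Tmem216-/- embryos and 3 samples of wild type embryos, all of the C57BL/6 strain at embryonic day 12. The labels name no other allele, agent or treatment in either group. They do not describe how Tmem216 was disrupted, say whether whole embryos or dissected parts were used, or tie each sample to a separate embryo. The p-values between genotypes therefore set the difference against the spread among these samples only. That spread may not be one between separate embryos, and some of it may be technical.

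The transition zone is the gate at the base of the primary cilium, where links between the microtubules and the membrane control which proteins enter and leave. Its Meckel syndrome module is a protein complex that includes the products of these genes and TMEM216. The Tectonics are secreted or membrane proteins, B9d1, B9d2 and Mks1 carry the B9 domain, a relative of the lipid-binding C2 domain, and Cc2d2a is a large coiled-coil and C2 domain protein that brings the B9 proteins to the complex. Mutation of the human genes causes Meckel syndrome or Joubert syndrome, and in mouse embryos loss of members impairs cilium formation or Hedgehog signalling. Many cilium genes are controlled by RFX transcription factors, which bind the X-box, a palindromic DNA site with an arm on each side of a short spacer.

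The promoters of most members carried a match to the X-box consensus. RefSeq promoter windows of 300 bases (GRCm38.p6, the mm10 assembly; 250 bases before the annotated start) were found for 7 of 7 members and searched on both strands. The consensus has 12 arm positions and 0 to 3 spacer bases. Tctn1, Tctn2, Tctn3 and B9d2 held an exact match, against 1.75% of 27025 genes, and Mks1 held a match with 1 mismatch, which 12.7% of all genes reached or bettered. In the other lists of cilium genes described below, 0% to 12.5% of genes held an exact match. A match with up to 1 mismatch was found in 18.2% to 50% of their genes, against 71.4% of the members. The best matches are shown because they are a shared feature that the choice of genes by name did not use. Each stretch runs along the gene's own strand, with the 2 arms of the match in capitals.
Tctn1 (chr5:122264411-122264440, minus strand): gcgctaggctgtgactGTTGCCcgGGCAAC
Tctn2 (chr5:124598679-124598708, plus strand): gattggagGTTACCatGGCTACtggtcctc
Tctn3 (chr19:40612350-40612379, minus strand): tcccagcgGTTGCCaGGTAACgggaaccac
B9d2 (chr7:25680788-25680817, plus strand): aacctgctGTTGCCccAGCAACagtcgggg
Mks1 (chr11:87853183-87853212, plus strand): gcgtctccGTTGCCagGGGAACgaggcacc
The Tctn2 match reads along the opposite strand. Measured from the RefSeq start, the matches began at base -140 in Tctn3, -62 in Tctn2, -24 in Mks1, 16 in B9d2 and 36 in Tctn1, where the match ends with the last base of the window. The best stretches in B9d1 and Cc2d2a had 2 mismatches, which 67.2% of all genes reach, and are not printed. The single arm GTTGCC, which overlaps the X-box because it is one of its arms, occurred on either strand in the windows of 6 of 7 members, against 14.1% of all genes. Cc2d2a was the member without it. In the other lists of cilium genes the share with this arm ran from 22.2% to 57.1%. These matches describe the letters in the windows and are not evidence of binding.

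Tmem216, the targeted gene, was 2.25, 0.51 and 1.39 TPM in Tmem216-/- embryos, against 31.0, 30.7 and 17.4 TPM in wild type embryos (replicates 1, 2 and 3). The log2 fold change of TPM + 1, Tmem216-/- over wild type, was -3.55 (SE 0.34, limma adjusted p = 0.0266), and the genotype labels hold in all 6 samples. The adjusted p lay between 0.0333 and 0.196 with single samples left out, and it missed 0.05 without Tmem216-/- replicate 2 (0.0615) or 3 (0.147) and without wild type replicate 1 (0.196), 2 (0.0834) or 3 (0.0551). Across all genes 16 passed higher (0.0975% of those tested) and 1 passed lower (0.00609%) at an adjusted p under 0.05. This count of 17 became 27 without Tmem216-/- replicate 1, 9 without its replicate 2 and 7 without its replicate 3, and it became 0, 2 and 1 without wild type replicates 1, 2 and 3. With wild type replicate 1 left out, 518 genes still had an unadjusted limma p under 0.05. Markers of some cell types also differed between the libraries. All 9 cardiac muscle markers passed higher and summed to 832 to 2194 TPM in Tmem216-/- embryos, against 38.2 to 58.7 TPM in wild type embryos. They are 9 of the 16 genes that passed higher. The list was chosen with earlier results of these data known, so this count is a description and not a separate test. The 6 hepatocyte markers, Ttr and Afp among them, all had lower means in Tmem216-/- embryos, with 0 past limma or at an unadjusted p under 0.05. They summed to 854, 88.2 and 123 TPM in Tmem216-/- embryos and to 1640, 2064 and 181 TPM in wild type embryos. Ttr did not follow the rest of this list: it was 73.0 TPM in wild type replicate 2 and 140 TPM in replicate 3. Afp was 1228 and 11.3 TPM there, and the remaining markers were also lower in replicate 3. Of the neural progenitor, neuron, erythroid and skeletal muscle markers, 6 each, 0 passed limma, with 0, 1, 1 and 2 at an unadjusted p under 0.05. These were Map2 (log2 fold change 0.31), Hbb-bh1 (0.64), Des (0.96) and Actn2 (1.19). The other skeletal muscle markers, Myod1, Myog, Myf5 and Chrna1, had overlapping groups. Whether the Des and Actn2 transcripts came from skeletal or cardiac muscle was not tested. Whether tissue content moves the levels of the Tectonic and B9 genes was not tested, and in bulk samples fewer ciliated cells and less RNA per cell cannot be told apart.

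All 7 genes were expressed in every sample, and no difference between the genotypes was detected in any of them. In limma 0 of 7 passed, against 0.104% of all tested genes, and 0 had an unadjusted p under 0.05, against 4.46% of all genes. The lowest unadjusted p was 0.215, for B9d2. The 7 log2 fold changes ran from -0.22 to 0.14, with a median of 0.04, beside a median of -0.01 over all tested genes. All 7 were under 0.25 in size, as were 78.1% of all genes. The groups overlapped in 6 of the 7 genes, and the exception was Cc2d2a. Among all tested genes the groups of 9.57% did not overlap, 4.75% with Tmem216-/- embryos higher and 4.83% with them lower.

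**Figure D1:**
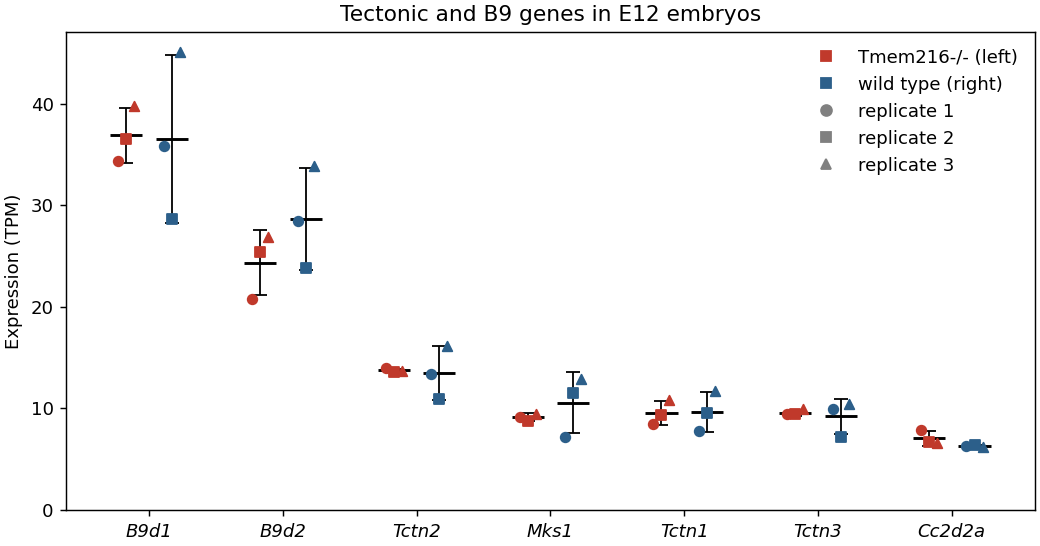
Expression in TPM (y axis, from 0) of the 7 Tectonic and B9 genes, with Tmem216-/- samples in red on the left and wild type samples in blue on the right of each gene; marker shape gives the replicate, the bar the mean and the whisker the SD (n = 3 each). B9d1 and B9d2 are the highest, and the Tmem216-/- points of 5 genes lie inside the wild type range.

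In every sample B9d1 was the highest, B9d2 came next and Cc2d2a was the lowest, while the order of the genes between them varied. B9d1 was the highest, at 36.7 ± 5.50 TPM (SD, n = 6), followed by B9d2 at 26.5 ± 4.45 TPM and Tctn2 at 13.6 ± 1.67 TPM. Mks1 (9.86 ± 2.06 TPM), Tctn1 (9.62 ± 1.47 TPM) and Tctn3 (9.40 ± 1.13 TPM) lay close together, and Cc2d2a was the lowest at 6.68 ± 0.62 TPM. These levels stood between the 32.0th and the 73.0th percentile of the tested genes. B9d1 exceeded B9d2 in 6 of 6 samples by 1.20 to 1.66 times. B9d2 exceeded Tctn2 in 6 of 6 samples by 1.49 to 2.18 times, and Tctn3 exceeded Cc2d2a in 6 of 6 samples by 1.14 to 1.68 times. Each of these 3 steps had an exact two-sided sign-flip permutation p of 0.03125, the smallest that 6 samples can give, and an adjusted p of 0.0625 over the 6 neighbouring pairs. Tctn2 exceeded Mks1 in 5 of 6 samples (exact permutation p = 0.0625, adjusted 0.0938), and wild type replicate 2 was the exception. Mks1, Tctn1 and Tctn3 could not be ordered, because each neighbour was higher in 3 of 6 samples (exact permutation p = 0.781 and 0.75, adjusted 0.781 for both). No step passed 0.05 after adjustment. The pairs and their direction were taken from the mean levels in these same 6 samples. The permutation p-values therefore describe the order and do not test pairs set beforehand.

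Among the B9 domain genes, B9d1 had nearly equal means in both genotypes, and B9d2 and Mks1 had lower means in Tmem216-/- embryos, within the spread of the samples. B9d1 (ENSMUSG00000001039; mm10, chromosome 11, 61505144 to 61512931, plus strand), needed for normal cilia in mouse embryos, was 34.4, 36.5 and 39.8 TPM in Tmem216-/- embryos and 35.9, 28.6 and 45.1 TPM in wild type embryos. The Tmem216-/- values all lay inside the wild type range. The means were 36.9 ± 2.68 TPM and 36.5 ± 8.27 TPM (SD, n = 3 each), with a log2 fold change of 0.04 (SE 0.17, limma adjusted p = 0.990; exact permutation p = 0.9). The 95% interval of the fold change of TPM + 1 was 0.77 to 1.36.

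B9d2 (ENSMUSG00000063439; chromosome 7, 25680780 to 25686558, plus strand), a partner of B9d1 in the same complex, was 20.8, 25.4 and 26.9 TPM in Tmem216-/- embryos and 28.5, 23.8 and 33.8 TPM in wild type embryos. Its log2 fold change was the furthest below 0 of the 7, but wild type replicate 2 lay below Tmem216-/- replicates 2 and 3. The means were 24.4 ± 3.18 TPM and 28.7 ± 5.02 TPM, and the log2 fold change was -0.22 (SE 0.16, limma adjusted p = 0.983; exact permutation p = 0.4). The interval of the fold change was 0.66 to 1.12. The log2 fold change was -0.35 without wild type replicate 2 and -0.10 without wild type replicate 3.

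Mks1 (ENSMUSG00000034121; chromosome 11, 87853215 to 87863803, plus strand), a gene mutated in Meckel syndrome in humans, was 9.20, 8.75 and 9.49 TPM in Tmem216-/- embryos and 7.21, 11.5 and 12.9 TPM in wild type embryos. Wild type replicate 1 was the lowest of the 6 samples and wild type replicate 3 the highest, with the Tmem216-/- samples close together between them. The log2 fold change was -0.15 (SE 0.21, limma adjusted p = 0.983; exact permutation p = 0.5), and the interval of the fold change was 0.63 to 1.28, the widest of the 7. Its value rested on single samples, since it was -0.38 without wild type replicate 1 and -0.00064 without wild type replicate 3.

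Cc2d2a (ENSMUSG00000039765; chromosome 5, 43662346 to 43740972, plus strand), the scaffold that binds the B9 proteins, was 7.89, 6.69 and 6.58 TPM in Tmem216-/- embryos and 6.31, 6.36 and 6.24 TPM in wild type embryos. Each Tmem216-/- sample was above each wild type sample, a separation shared by 4.75% of all tested genes in that direction. The means were 7.05 ± 0.73 TPM and 6.30 ± 0.06 TPM, a log2 fold change of 0.14 (SE 0.14, limma adjusted p = 0.983), and the interval of the fold change was 0.88 to 1.38. The exact permutation p was 0.1, the smallest that 3 against 3 samples can give. Tmem216-/- replicate 1 held the highest value, and without it the log2 fold change was 0.06.

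The 3 Tectonic genes had the means closest to each other in the 2 genotypes, together with B9d1. Tctn1 (ENSMUSG00000038593; chromosome 5, 122237848 to 122264460, minus strand), which acts in Hedgehog signalling in the mouse neural tube, was 8.51, 9.35 and 10.9 TPM in Tmem216-/- embryos and 7.74, 9.53 and 11.7 TPM in wild type embryos. Its groups overlapped fully, and the log2 fold change was -0.0013 (SE 0.18, limma adjusted p = 0.999; exact permutation p = 1.0) with a fold interval of 0.74 to 1.35. Tctn2 (ENSMUSG00000029386; chromosome 5, 124598749 to 124627738, plus strand), a transmembrane member of the complex, was 13.9, 13.6 and 13.7 TPM in Tmem216-/- embryos and 13.4, 10.9 and 16.2 TPM in wild type embryos. The Tmem216-/- samples were close together and all lay inside the wild type range. Its log2 fold change was 0.04 (SE 0.16, limma adjusted p = 0.988; exact permutation p = 0.7) with a fold interval of 0.79 to 1.33. GENCODE release M21 lists this gene as a processed transcript and the other 6 as protein coding. Tctn3 (ENSMUSG00000025008; chromosome 19, 40596446 to 40612233, minus strand), the other transmembrane Tectonic, was 9.42, 9.41 and 9.91 TPM in Tmem216-/- embryos and 9.93, 7.23 and 10.5 TPM in wild type embryos. Wild type replicate 2 stood below the other 5 samples, and the log2 fold change was 0.07 (SE 0.16, limma adjusted p = 0.983; exact permutation p = 1.0) with a fold interval of 0.80 to 1.37.

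**Figure D2:**
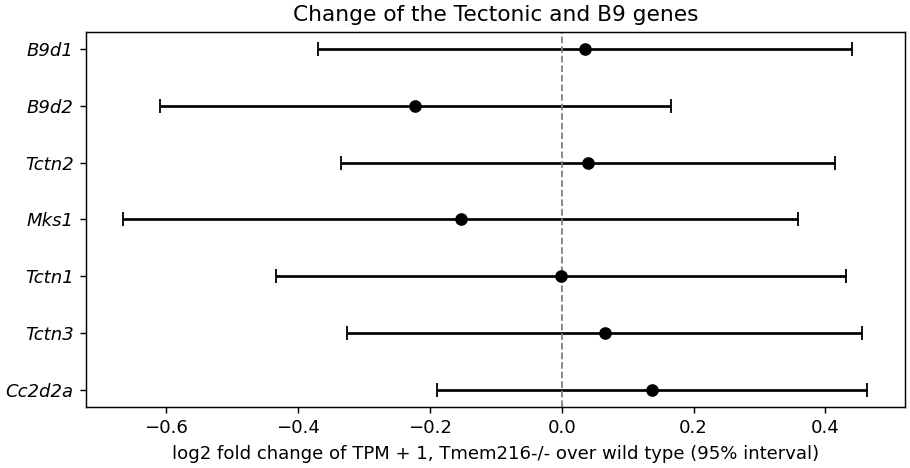
Log2 fold change of TPM + 1, Tmem216-/- over wild type (x axis), for the 7 genes (y axis), with the 95% interval from the limma fit. Every interval includes 0, and the points run from -0.22 for B9d2 to 0.14 for Cc2d2a.

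The direction of the small differences was not stable over the set. Tctn1, Tctn2, Tctn3 and B9d1, the genes nearest 0, each turned in at least 1 of 18 alternative fits. B9d2, Mks1 and Cc2d2a did not turn in any, although Mks1 reached -0.00064 without wild type replicate 3. With all samples 4 genes had a log2 fold change above 0 and 3 below, against 48.3% above 0 over all genes. With median-of-ratios scaling, or with haemoglobin, mitochondrial and ribosomal RNA genes removed, Tctn1 turned and 5 were above 0 and 2 below. Without wild type replicate 2 only Cc2d2a was above 0 and 6 were below, and without wild type replicate 3 the split was 5 above and 2 below. With Y-linked expression as a covariate 2 were above 0 and 5 below. None of the 7 passed limma in the main fit or in any of the 18 alternatives. Mks1 alone had an unadjusted limma p under 0.05 in any of them. That was so with wild type replicate 1 left out (limma unadjusted p = 0.0478, adjusted p = 0.997) and with array weights (limma unadjusted p = 0.0435, adjusted p = 1.00).

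The summed level of the 7 genes was 104, 110 and 117 TPM in Tmem216-/- embryos and 109, 98.0 and 137 TPM in wild type embryos. The sums averaged 110 ± 6.52 TPM and 114 ± 19.9 TPM (SD, n = 3 each), and the Tmem216-/- samples lay inside the wild type range. B9d1 and B9d2 together held 55.4 ± 2.12% of the sum in Tmem216-/- embryos and 56.8 ± 2.93% in wild type embryos. The share of B9d2 alone was 19.9% to 23.2% in Tmem216-/- embryos and 24.3% to 26.1% in wild type embryos. The share of B9d1 was 33.0% to 33.9% in Tmem216-/- embryos and 29.2% to 33.0% in wild type embryos. The shares are parts of a common sum and so depend on each other, and no test was made on them.

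The main variation of these genes lay among the wild type samples. For 6 of the 7 the SD in TPM was smaller in Tmem216-/- than in wild type embryos, as it was for 73.1% of all tested genes. In 5 of the 7 the Tmem216-/- values all lay inside the wild type range, against 41.1% of all genes. The coefficient of variation ran from 1.33% (Tctn2) to 13.1% (B9d2) in Tmem216-/- embryos and from 0.96% (Cc2d2a) to 28.3% (Mks1) in wild type embryos. Wild type replicate 3 held the highest value of all 6 samples for 6 of the 7 genes, all but Cc2d2a. Wild type replicate 2 held the lowest for Tctn2, Tctn3 and B9d1. Averaged over the 7 genes, the level relative to each gene's mean was -0.05, -0.03 and 0.05 on the log2 scale in Tmem216-/- replicates 1, 2 and 3, and -0.08, -0.13 and 0.23 in wild type replicates 1, 2 and 3. Summed neuron markers were 1323, 916 and 1831 TPM in wild type replicates 1, 2 and 3, and 1202 to 1404 TPM in Tmem216-/- embryos. Most of this sum was Tubb3, at 470 and 1227 TPM in wild type replicates 2 and 3, where Map2 was 115 and 127 TPM. All 6 neuron markers were higher in wild type replicate 3 than in replicate 2. Summed neural progenitor markers were likewise lowest in wild type replicate 2 (1549 TPM) and second highest of the 6 samples in wild type replicate 3 (2016 TPM). Most of this sum was Vim (921 and 1294 TPM). Of the 6 neural progenitor markers 5 were higher in replicate 3 than in replicate 2. Fabp7 went the other way, at 347 TPM in replicate 2 and 249 TPM in replicate 3, its lowest sample. Summed hepatocyte markers were lowest of the wild type samples in replicate 3, although Ttr alone was lowest in replicate 2. The part of tissue content in the spread of the 7 genes was not tested. Cc2d2a followed another pattern, with its only marked deviation, 0.22, in Tmem216-/- replicate 1.

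**Figure D3:**
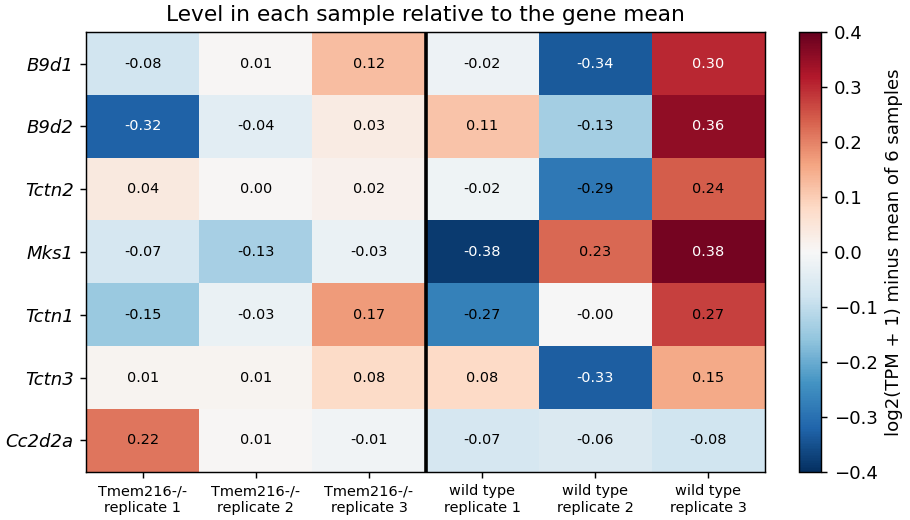
Level of each gene (rows) in each sample (columns, Tmem216-/- on the left) as log2(TPM + 1) minus the mean of the 6 samples. Wild type replicate 3 is high and wild type replicate 2 mostly low, with B9d1 at 0.30 and -0.34, and the Tmem216-/- columns are paler apart from B9d2 (-0.32) and Cc2d2a (0.22) in replicate 1.

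The gap between wild type replicates 3 and 2 in these genes stood beside one that varied with the GC content of transcripts across the table. Wild type replicate 3 was above replicate 2 in 6 of the 7 genes, against 53.2% of all tested genes, and the median difference was 0.48 on the log2 scale, against 0.05 over all genes. The longest transcripts of the 7 genes had GC contents of 47.5% (Cc2d2a) to 56.0% (B9d2), with a median of 51.9%, against 49.9% over all tested genes. GC content did not order the 7 genes by this difference: it was -0.02 for Cc2d2a at the lowest GC content, 0.64 for B9d1 (51.3% GC), 0.15 for Mks1 (54.6% GC) and 0.27 for Tctn1 (55.6% GC). Across 15857 tested genes with a sequence the difference correlated with GC content (Pearson r = 0.45, a description over genes that share the same 2 libraries). Its median was -0.80 for genes of 35% to 40% GC, 0.23 for genes of 50% to 55% GC and 0.35 for genes of 55% to 60% GC. The median GC content of the 7 genes, 51.9%, lies in the 50% to 55% range. The log2 fold change between genotypes correlated with GC content at r = -0.19. The part of GC content in the levels of the 7 genes was not tested.

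**Figure D4:**
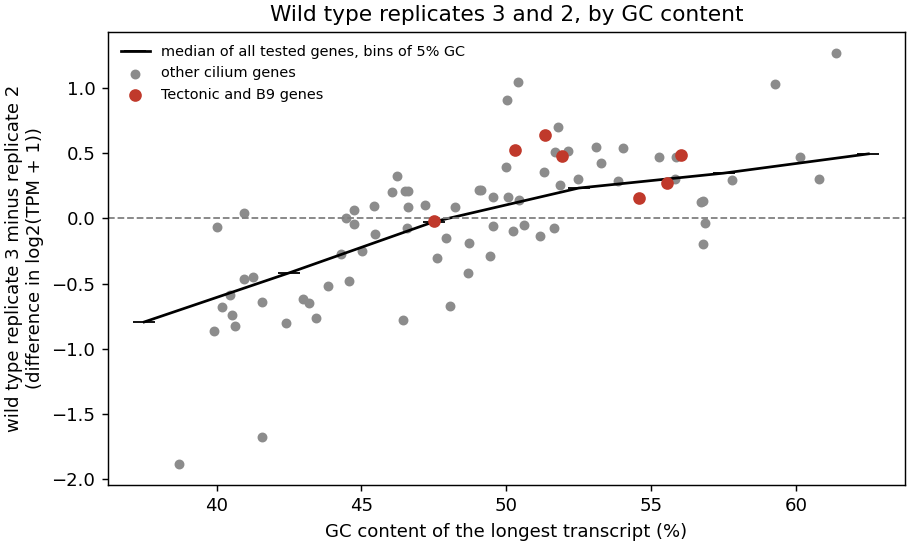
Difference in log2(TPM + 1) between wild type replicates 3 and 2 (y axis) against the GC content of the longest transcript in percent (x axis) for the Tectonic and B9 genes (red) and other cilium genes (grey); the line joins medians of all tested genes in bins of 5% GC. The line climbs from -0.80 to 0.50, and the red points sit between -0.02 and 0.64.

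No difference between the genotypes was detected in genes that overlap or adjoin the members. Hvcn1, which encodes a proton channel, overlaps Tctn1 by 4450 bases on the other strand. It was 6.87, 7.0 and 6.55 TPM in Tmem216-/- embryos and 7.03, 5.71 and 8.37 TPM in wild type embryos, and had a log2 fold change of -0.03. The sources used here do not say whether reads were counted by strand, so reads of Tctn1 and Hvcn1 from the overlap cannot be told apart. Entpd1, an ectonucleotidase gene, starts 133 bases from Tctn3 in the opposite direction and had a log2 fold change of -0.09. B9d1os, an antisense transcript that starts 85 bases from B9d1, stayed at 0.13 to 0.90 TPM in Tmem216-/- embryos and 0.46 to 1.90 TPM in wild type embryos, under the level needed for testing. Tgfb1, the growth factor gene that begins 443 bases after B9d2, was at -0.19, and Atp6v0a2, a proton pump subunit gene after Tctn2, at -0.07. Gm15481, a pseudogene inside Tctn1, was listed at 0 in 4 of 6 samples and did not pass the filter. None of the 4 tested neighbours passed limma, and their lowest unadjusted p was 0.359.

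No other gene of the transition zone passed, apart from the targeted gene itself. Of the 8 other TMEM genes of the zone 4 were nominally higher and 4 lower, with 0 past limma over all genes, 0 at an unadjusted p under 0.05 and log2 fold changes from -0.19 to 0.10. Tmem80, Tmem67 and Tmem107 had the smallest p among them, with log2 fold changes of -0.19, 0.10 and -0.18. Of 12 genes for other transition zone and inversin compartment proteins 10 were higher and 2 lower, with a median of 0.13. In this list 0 passed limma and 1 had an unadjusted p under 0.05. Anks6, an activator of the inversin compartment kinase, was 8.31, 7.24 and 8.38 TPM in Tmem216-/- embryos and 8.75, 8.90 and 12.7 TPM in wild type embryos. Its groups did not overlap, and its log2 fold change of -0.29 had an adjusted p of 0.983 in limma. Of the 12 genes it was the 1 whose groups did not overlap with Tmem216-/- embryos lower. In 3 others the groups did not overlap with Tmem216-/- embryos higher. The shares over all tested genes were 4.83% lower and 4.75% higher.

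No gene of the transport and regulatory lists passed. Intraflagellar transport genes had 21 of 27 higher and 6 lower with a median log2 fold change of 0.08, and BBSome genes, whose complex carries membrane cargo, had 7 of 9 higher and 2 lower with a median of 0.12. Ciliary membrane proteins and their carriers had 3 of 11 higher and 8 lower, with a median of -0.04. In these 3 lists 0 genes passed limma and 0 had an unadjusted p under 0.05. The genes with the smallest p were Wdr35 (0.16), Ift57 (0.19) and Kifap3 (0.12) for transport, Bbs2 (0.24), Bbip1 (0.34) and Bbs5 (0.35) for the BBSome, and Evc (-0.22), Arl3 (0.18) and Evc2 (-0.15) for the membrane. Of the RFX factors and Foxj1, the regulator of motile cilia, 7 of 8 were tested, with 3 higher, 4 lower, a median of -0.12 and 0 past limma or an unadjusted p under 0.05. Rfx2 was 6.68, 5.56 and 5.73 TPM in Tmem216-/- embryos and 8.95, 6.12 and 9.38 TPM in wild type embryos (log2 fold change -0.37). Rfx3 was 8.26, 9.15 and 9.15 TPM in Tmem216-/- embryos and 7.77, 9.20 and 5.35 TPM in wild type embryos (0.25). Foxj1 was 4.67, 5.61 and 5.30 TPM in Tmem216-/- embryos and 7.77, 3.89 and 10.8 TPM in wild type embryos (-0.37). All 3 regulators had overlapping groups, and Rfx6 never exceeded 0.24 TPM. The 10 markers of multiciliated cells, such as Ccdc39 and Rsph1, summed to 12.4 to 14.2 TPM in Tmem216-/- embryos and 13.6 to 14.5 TPM in wild type embryos, and 5 were high enough to test, with 0 past limma or an unadjusted p under 0.05.

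**Figure D5:**
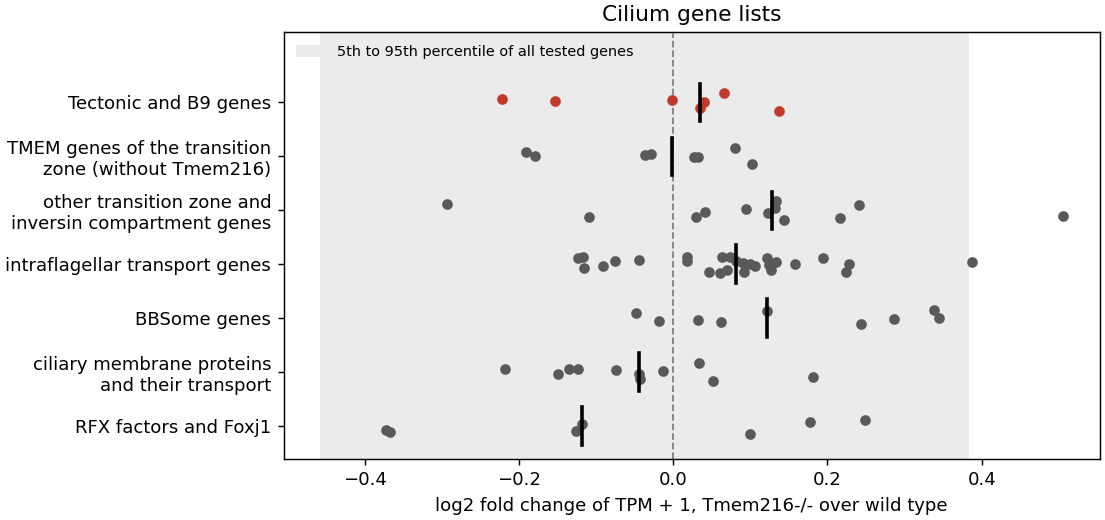
Log2 fold change of TPM + 1, Tmem216-/- over wild type (x axis), for each tested gene of the cilium lists (rows; Tectonic and B9 genes in red), with a bar at each list's median; the grey band spans the 5th to 95th percentile of all tested genes, -0.46 to 0.38. Tmem216 is left out, and the medians run from -0.12 to 0.13.

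The genes whose profile over the 6 samples lay nearest to the mean profile of the 7, by root mean square difference of log2(TPM + 1) around each gene's mean, were H2afy, Pink1 and Farp1. Their differences were 0.013, 0.020 and 0.026, out of 13828 candidates with a symbol. The 7 members themselves were 0.080 (Tctn2) to 0.21 (Mks1) from that mean profile. The 3 genes were picked as the nearest of all candidates, so their closeness is a result of the choice. H2afy, a macroH2A histone gene, was 331, 331 and 348 TPM in Tmem216-/- embryos and 318, 304 and 395 TPM in wild type embryos.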

How the data were processed

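Expression was read from a table in which the authors deposited TPM per gene for each sample. Per the submitters' processing notes, CASAVA 1.8, HISAT2, StringTie, RSEM and mm10 were used. TPM keep no read depth, so sequencing depth is unknown here, and neither a count model nor a counting interval was used. The table held 56359 rows, 27 date-like names were restored from identifiers, and 2 further numeric columns were not used.

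Genes that reached 1 TPM in 3 or more of the 6 samples were compared as log2(TPM + 1) with limma 3.58.1 (R 4.3.3; eBayes with a trend, two-sided, Benjamini-Hochberg over all 16411 tested genes, threshold 0.05), and the code was tested on simulated data. A log2 fold change is on the TPM + 1 scale and understates changes of low genes. SE is the moderated standard error. Permutation tests were exact and two-sided. GC content came from GENCODE M21 transcripts and promoters from RefSeq. Python 3.11.15, pandas 2.3.3, scipy 1.17.1 and matplotlib 3.10.9 were used.

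The members, lists and tests were chosen with earlier results of these data known, and the X-box, share and GC descriptions were added after values or sequences were seen. Named genes are the members, Tmem216, genes that overlap a member or start within 2 kb, the 3 genes of smallest p (or those that passed) in each cilium list, examples of the 2 of smallest p in marker lists, and the 3 nearest profiles. Marker genes outside this rule were chosen after their values were seen. Some genes that this rule names are not reported here.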

Additional observations from a re-analysis of the deposited data

How the results depend on the processing

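Each of the 7 member results was recomputed under 18 alternatives, which gave 126 values: 115 kept their direction, 11 turned, and 0 passed limma (lowest adjusted p 0.443). Some of the 115 could not turn, because the alternative changes only the p-value and leaves the log2 fold change as in the main fit. These alternatives were no filter, a filter at 5 TPM, eBayes without a trend, robust eBayes and the replicate block. Tctn1 turned to 0.0057 with median-of-ratios scaling and to 0.010 with haemoglobin, mitochondrial and ribosomal RNA genes removed. Tctn2 turned to -0.034 and B9d1 to -0.054 with a Y-linked covariate. When single samples were omitted, the log2 fold change ran from -0.14 to 0.13 for Tctn1, -0.093 to 0.17 for Tctn2, -0.083 to 0.16 for Tctn3, -0.12 to 0.20 for B9d1, -0.35 to -0.10 for B9d2, -0.38 to -0.00064 for Mks1 and 0.064 to 0.18 for Cc2d2a, and the member median ran from -0.083 to 0.13. The count over all genes ran from 0 to 27 when single samples were omitted. It was 0 with no filter, with 1207 genes at an unadjusted p under 0.05, and 0 with array weights, whose fit did not converge fully (531). For Tmem216, whose alternatives were chosen after seeing the data, the adjusted p also missed 0.05 with a pseudocount of 0.1 (0.0667), no filter (0.0874), array weights (0.280) and the Y-linked covariate (0.0810). The cause of these changes was not tested.

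The replicate numbers gave no sign of pairing: deviations from the group means correlated at 0.016, -0.093 and 0.10 for the same numbers. For different numbers the correlations ran from -0.147 to 0.142. With 3 samples in each group this check cannot show that the samples are unpaired. With replicate number as a block 25 genes passed over all genes and 0 of the 7 members did. Pseudocounts of 0.1 and 5 left 0 of 6 steps in the order of levels past 0.05. The main test also gave 0, with 3 steps at an unadjusted exact permutation p under 0.05. These alternatives could not give another count, because a pseudocount cannot change which gene of a pair is higher in a sample. The 3 steps that held in 6 of 6 samples stay at the smallest exact permutation p, 0.03125. The other steps cannot reach it, so the adjusted p of these 3 stays at 0.0625. The stability of the order was therefore not tested by these pseudocounts. Depth is unknown. With 3 samples in each group and adjustment over all genes, changes larger than the intervals given also go undetected: Des (log2 fold change 0.96) and Actn2 (1.19) did not pass limma, with adjusted p of 0.310 and 0.433.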
